A study of Mus musculus with 10 samples.

Results

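Replication-dependent histone genes encode the core histones that package newly made DNA. They were measured here as 21 genes of 22180, comprising 6 genes for H2A, 8 for H2B and 7 for H4. A gene entered when the platform annotation gave a probe set this symbol and no other, and when the symbol followed the naming pattern of the clustered histone genes. Where a gene had more than 1 such probe set, the probe set with the highest mean was used, which applied to H2ac21. No H3 gene had a probe set of its own, and linker histones carry other symbols in the annotation, so neither class is among the 21. The samples were frozen pieces of jejunum, the middle of the small intestine, from female mice aged 10 to 12 weeks, 1 array each. The 5 knockouts had the genotype Pcyt1aLoxP/LoxP;VilCreERT2, and the 5 controls Pcyt1aLoxP/LoxP without the Cre. VilCreERT2 is a tamoxifen-inducible Cre recombinase driven by the villin promoter, which is active in gut epithelium and not in the other cells of the piece. Both groups were given tamoxifen for 5 days, ate a high fat diet for 4 days and then had no food overnight. The series text also speaks of re-feeding, and the source labels of the controls repeat the description of the knockouts.

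Most of the core histone mRNA in a dividing cell is made in S phase and destroyed when DNA replication ends. These genes lie in clusters, carry no introns in their usual form, and their mRNAs end in a conserved stem-loop in place of a poly(A) tail. In the small intestine, S phase cells are found mainly in the crypts, beside Paneth cells and below the non-dividing villus enterocytes. The arrays used a whole-transcript labelling kit. In a bulk piece of tissue, fewer cells of a type and less RNA per cell cannot be told apart.

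The deleted gene Pcyt1a, which encodes the rate-controlling enzyme of phosphatidylcholine synthesis, was lower on every knockout than on every control, at 7.46 ± 0.25 in knockouts and 9.39 ± 0.17 in controls (mean ± SD of 5 arrays each; adjusted p = 9.58e-05 in limma). Where its probes lie relative to the floxed exons is not known here. The median log2 intensity over all genes was between 5.77 and 5.89 on every array.

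The promoters of 5 members are shown because they include the 2 members whose groups did not overlap (H2bc12 and H2bc3), neighbouring H2A genes of which 1 window holds an octamer (H2ac20) and the other does not (H2ac21) and an H4 gene with no CCAAT match (H4c9). The windows run from 250 bases before to 50 after the annotated start and come from RefSeq on the build GRCm38.p6, which held a window for 19 of the 21 members. They are chr13:22035571-22035870 on the plus strand for H2bc12, chr13:23746484-23746783 (plus) for H2bc3, chr3:96220831-96221130 (minus) for H2ac20, chr3:96219635-96219934 (plus) for H2ac21 and chr13:22041313-22041612 (minus) for H4c9. Capitals mark matches on either strand to the CCAAT motif, to the TATA box letters TATAAA, and to ATTTGCAT, the octamer known from H2B promoters.
H2bc12: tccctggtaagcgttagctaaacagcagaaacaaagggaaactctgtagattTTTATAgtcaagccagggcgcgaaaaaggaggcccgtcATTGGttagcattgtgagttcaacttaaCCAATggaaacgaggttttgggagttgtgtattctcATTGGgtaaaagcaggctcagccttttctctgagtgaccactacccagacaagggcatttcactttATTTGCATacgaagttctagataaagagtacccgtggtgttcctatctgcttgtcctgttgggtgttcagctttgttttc
H2bc3: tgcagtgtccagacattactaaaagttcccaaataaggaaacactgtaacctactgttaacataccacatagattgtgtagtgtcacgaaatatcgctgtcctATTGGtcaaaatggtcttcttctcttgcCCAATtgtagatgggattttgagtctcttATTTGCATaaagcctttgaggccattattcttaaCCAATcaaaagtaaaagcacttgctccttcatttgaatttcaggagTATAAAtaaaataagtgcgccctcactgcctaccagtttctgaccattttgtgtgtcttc
H2ac20: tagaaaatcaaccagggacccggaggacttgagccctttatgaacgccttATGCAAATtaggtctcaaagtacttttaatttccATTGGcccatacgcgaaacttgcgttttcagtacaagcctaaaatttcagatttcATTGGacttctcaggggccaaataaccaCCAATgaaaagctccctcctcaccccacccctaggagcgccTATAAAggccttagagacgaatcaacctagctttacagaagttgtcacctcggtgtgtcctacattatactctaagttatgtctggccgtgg
H2ac21: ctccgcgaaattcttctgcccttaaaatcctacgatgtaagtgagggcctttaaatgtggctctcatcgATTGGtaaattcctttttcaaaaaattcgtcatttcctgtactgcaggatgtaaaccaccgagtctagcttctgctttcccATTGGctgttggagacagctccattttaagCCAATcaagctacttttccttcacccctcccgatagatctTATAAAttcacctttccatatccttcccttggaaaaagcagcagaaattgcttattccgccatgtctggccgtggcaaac
H4c9: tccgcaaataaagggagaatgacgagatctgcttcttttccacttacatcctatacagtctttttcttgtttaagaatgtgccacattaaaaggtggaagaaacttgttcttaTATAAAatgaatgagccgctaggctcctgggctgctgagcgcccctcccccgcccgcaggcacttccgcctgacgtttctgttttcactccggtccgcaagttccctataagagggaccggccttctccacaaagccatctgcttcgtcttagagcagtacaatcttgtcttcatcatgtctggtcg

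A CCAAT match was present in 6 of 6 H2A windows, 7 of 7 H2B windows and 1 of 6 H4 windows. Over all 32851 windows of this length, 37.4% held one. The octamer was found in 3 of 6 H2A, 5 of 7 H2B and 0 of 6 H4 windows, against 1.74% of all windows. Letters TATAAA were present in 5 of 6, 4 of 7 and 4 of 6 windows of H2A, H2B and H4, against 13.6% of all. In H2ac21 this match began at position -30 relative to the annotated start, and in H2ac20 at -42. It began at -10 in H2bc3, at -137 in H4c9 and, on the opposite strand, at -198 in H2bc12. Whether any match acts as a TATA box of the gene was not tested. The windows of H2bc12 and H2ac12 overlapped by 277 bases, since these genes run in opposite directions from starts 178 bases apart, and matches within the overlap are the same letters. The windows of H2bc1 and H2ac1 shared 220 bases. In the 5 windows shown no match overlapped another.

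Over the whole list, 18 of 21 members had a positive log2 fold change, knockout minus control, where 46.8% of all genes tested did. The median was 0.27, against -0.01 over all genes. None of the 21 passed limma's test at an adjusted p of 0.05 over all genes, a threshold that 0.0271% of genes passed. At an unadjusted p under 0.05 there were 6 members, all higher in knockouts, against 8.29% of all genes in that direction. They were H2bc12, H2bc3, H2ac20, H2ac21, H2ac10 and H4c9. In 2 of the 21 members every knockout lay above every control, as in 1.64% of all genes. The labels do not state that each array is a different animal, and the p-values rest on the spread among the arrays as given.

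**Figure D1:**
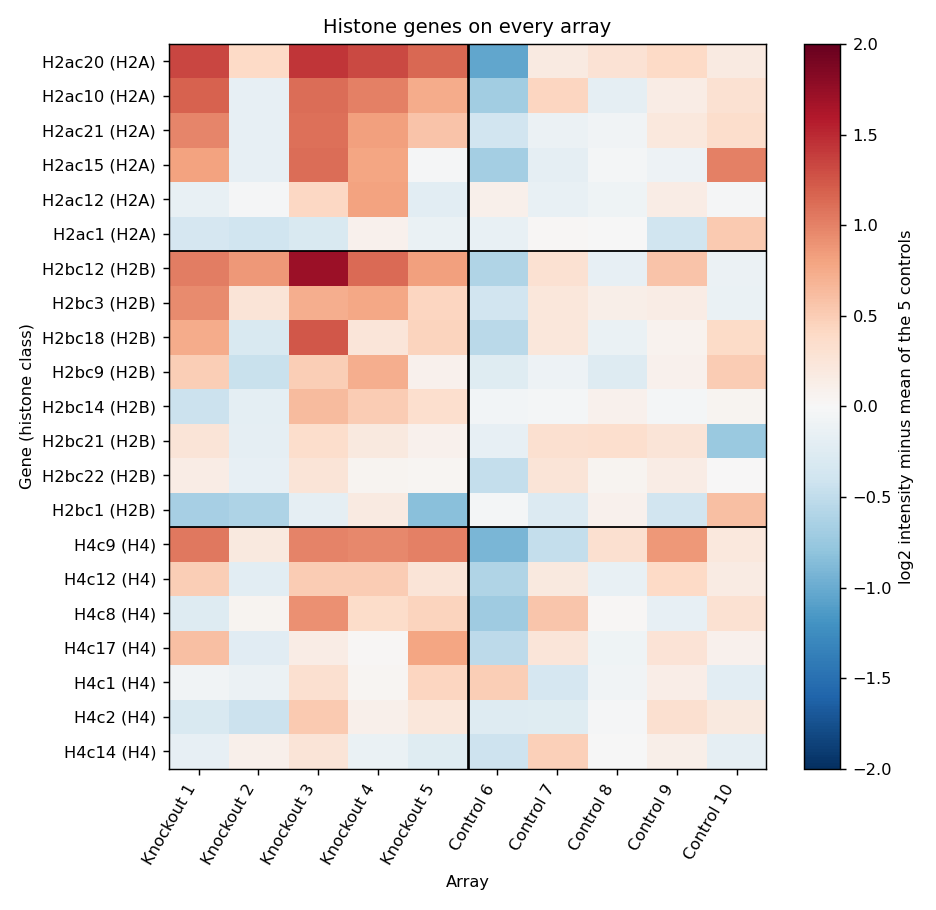
Log2 intensity of each of the 21 genes (rows, by histone class) on each of the 10 arrays (columns, knockouts left of the line, controls right), as the difference from the mean of the 5 controls. Red is higher and blue lower. Knockout 2 is the lowest knockout in 15 rows, and Control 6 the lowest control in 15 rows.

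**Figure D2:**
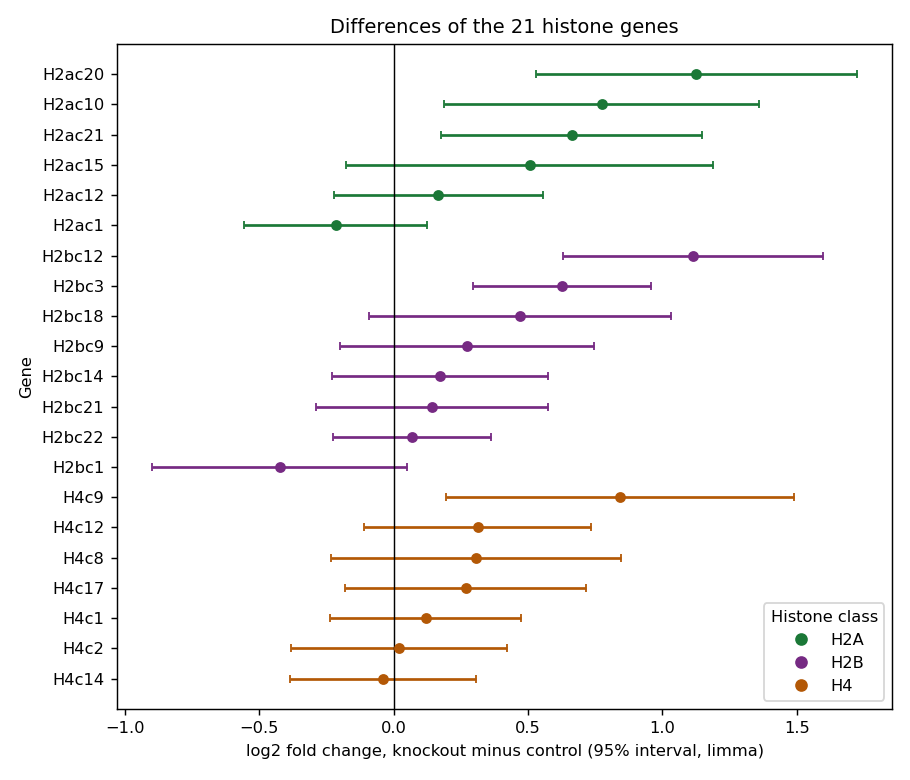
Log2 fold change, knockout minus control, of the 21 genes with 95% limma intervals, coloured by histone class and n = 5 arrays per group. The intervals of 6 genes lie above 0, and those of the other 15 include 0.

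Among the H2B genes, H2bc12 had the clearest separation between the groups. Its log2 intensity was 6.83, 6.67, 7.52, 6.93 and 6.63 on Knockout 1 to 5, against 5.21, 6.11, 5.64, 6.38 and 5.68 on Control 6 to 10. The groups did not overlap, with Knockout 5 the lowest knockout and Control 9 the highest control. The means were 6.92 ± 0.36 in knockouts and 5.80 ± 0.45 in controls (mean ± SD of 5 arrays each), a log2 fold change of 1.11 (SE 0.22, adjusted p = 0.111 in limma). On a linear scale this is 2.16-fold, with a 95% interval of 1.55 to 3.02. H2ac12, the H2A gene on the other side of the same promoter region, had a mean log2 intensity of 1.91 ± 0.43 in knockouts and 1.75 ± 0.13 in controls (mean ± SD of 5 arrays each). Its log2 fold change was 0.17 (SE 0.18, adjusted p = 0.721 in limma), and its knockout values spanned those of the controls. Over the 10 arrays its mean was 1.83, near the lowest of any gene (1.41), and whether H2ac12 was detected is not known.

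H2bc3, a second H2B gene of the chromosome 13 cluster, also showed no overlap. The knockouts read 7.76, 7.08, 7.55, 7.59 and 7.24 and the controls 6.44, 7.05, 6.94, 6.97 and 6.69 in log2 intensity, in the order of their numbers. Knockout 2, the lowest of its group, lay just above Control 7, the highest of the controls. The log2 fold change was 0.63 (SE 0.15, adjusted p = 0.130 in limma). H2bc18, in the cluster on chromosome 3, read 7.18, 6.12, 7.67, 6.67 and 6.87 in knockouts and 5.89, 6.66, 6.30, 6.50 and 6.81 in controls. Here 3 of 5 knockouts lay above every control and Knockout 2 lay below 4 of 5 controls, with a log2 fold change of 0.47 (SE 0.26, adjusted p = 0.447 in limma) that was 0.28 without Knockout 3. The other H2B genes, H2bc9, H2bc14, H2bc21 and H2bc22, had log2 fold changes between 0.07 and 0.27, with adjusted p-values from 0.617 to 0.858.

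H2bc1 encodes the H2B variant of the testis. It was the member with the lowest log2 fold change, -0.42 (SE 0.22, adjusted p = 0.416 in limma), or -0.27 without Control 10. Its mean over the 10 arrays was 1.97, near the lowest of any gene (1.41), and whether it was detected is not known. The knockouts read 1.52, 1.57, 2.01, 2.36 and 1.35 and the controls 2.15, 1.91, 2.27, 1.81 and 2.79. The groups overlapped, with Knockout 4 above 4 of the 5 controls. Its divergent neighbour H2ac1, which encodes the testis H2A variant, averaged 5.22 ± 0.20 in knockouts and 5.43 ± 0.33 in controls (mean ± SD of 5 arrays each), a log2 fold change of -0.22 (SE 0.16, adjusted p = 0.576 in limma). These were 2 of the 3 members with a negative value.

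**Figure D3:**
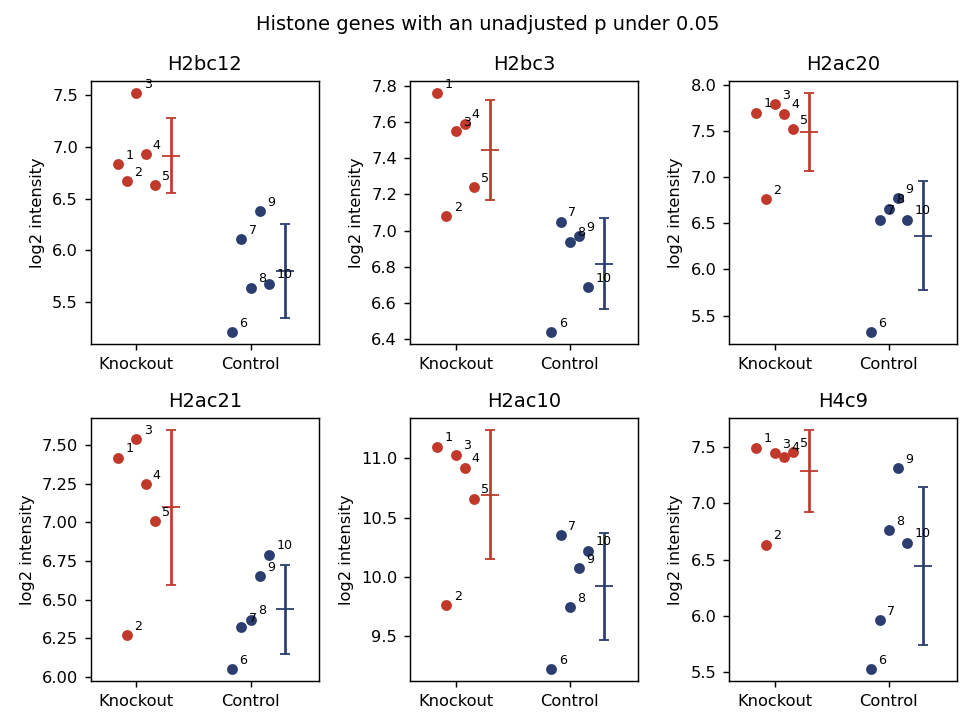
Log2 intensity of the 6 genes with an unadjusted limma p under 0.05, with each point an array numbered as in the titles, knockouts in red at the left and controls in blue at the right, beside the mean and SD (n = 5 each). The vertical axes differ between panels and do not start at 0. Knockout 2 is the lowest knockout in 5 panels, and Control 6 the lowest control in all 6.

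In the H2A class, H2ac20 had the highest log2 fold change of the 21 members, 1.13 (SE 0.27, adjusted p = 0.130 in limma). Without Control 6, where H2bc12 was at 0.96, H2ac20 was at 0.86 (SE 0.19, adjusted p = 0.214 in limma). Its values were 7.70, 6.76, 7.79, 7.69 and 7.52 in knockouts against 5.32, 6.54, 6.66, 6.77 and 6.54 in controls. A single crossing kept the groups from separating, Knockout 2 at 6.76 against Control 9 at 6.77. The means were 7.49 ± 0.42 in knockouts and 6.37 ± 0.59 in controls (mean ± SD of 5 arrays each), or 2.18-fold on a linear scale with a 95% interval of 1.44 to 3.30. H2ac21, which lies beside it on chromosome 3, read 7.42, 6.27, 7.54, 7.25 and 7.01 in knockouts and 6.05, 6.32, 6.37, 6.65 and 6.79 in controls. Of the knockouts 4 exceeded every control, whereas Knockout 2 lay below all controls but Control 6. The log2 fold change was 0.66 (SE 0.22, adjusted p = 0.217 in limma). A second, dimmer probe set of H2ac21, with means of 3.77 ± 0.25 in knockouts and 3.66 ± 0.42 in controls (mean ± SD of 5 arrays each), gave 0.10 (SE 0.19, adjusted p = 0.850 in limma). With the mean of both probe sets in place of the brighter one, H2ac21 was at 0.38 (SE 0.18, adjusted p = 0.378 in limma), and 5 members in place of 6 had an unadjusted p under 0.05.

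H2ac10, on chromosome 13, read 11.10, 9.76, 11.03, 10.92 and 10.66 in knockouts and 9.22, 10.35, 9.74, 10.07 and 10.22 in controls. Again 4 knockouts were above every control, and Knockout 2 was within the range of the controls. The log2 fold change was 0.77 (SE 0.27, adjusted p = 0.231 in limma), or 1.71-fold with a 95% interval of 1.14 to 2.57. H2ac15 had a log2 fold change of 0.51 (SE 0.31, adjusted p = 0.508 in limma) from means of 3.51 ± 0.56 in knockouts and 3.01 ± 0.62 in controls (mean ± SD of 5 arrays each).

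The 7 H4 genes encode the same H4 protein from separate loci, and their probe sets gave log2 fold changes from -0.04 to 0.84. H4c9 was at the top, with values of 7.49, 6.63, 7.44, 7.41 and 7.45 in knockouts and 5.53, 5.96, 6.76, 7.31 and 6.65 in controls. Of the knockouts 4 lay above every control, while Knockout 2 was among the controls. The log2 fold change was 0.84 (SE 0.30, adjusted p = 0.239 in limma). H4c12 read 11.37, 10.66, 11.38, 11.38 and 11.13 in knockouts and 10.27, 11.06, 10.73, 11.27 and 11.03 in controls, with 3 knockouts above every control and a log2 fold change of 0.31 (SE 0.19, adjusted p = 0.510 in limma), or 0.16 without Control 6. H4c17 was at 0.27 (SE 0.21, adjusted p = 0.600 in limma), or 0.14 without Knockout 5 and 0.14 without Control 6, and H4c14 at -0.04 (SE 0.16, adjusted p = 0.937 in limma). The remaining H4 genes, H4c1, H4c2 and H4c8, lay between 0.02 and 0.31, with adjusted p-values from 0.623 to 0.976.

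By class, the median log2 fold change was 0.58 for H2A, 0.22 for H2B and 0.27 for H4. By position it was 0.27 for the 16 members on chromosome 13 and 0.47 for the 5 on chromosome 3, and no difference between classes or clusters was tested. Members were also divided by signal. For the 10 members with a mean log2 intensity of at least 5 the median was 0.64, and 9 of 10 were positive. Over all 14932 genes this bright the median was 0.01, and 2575 had an unadjusted p under 0.05 in either direction. For the 11 dimmer members the median was 0.17, with 9 of 11 positive and 0 of 11 at an unadjusted p under 0.05. Of all genes, bright and dim, 8.29% were higher and 5.56% lower at that threshold. The 6 members with an unadjusted p under 0.05 were all among the 10.

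For the histone genes, Knockout 2 and Control 6 stood apart from the other arrays of their groups. Knockout 2 was the lowest knockout in 15 of 21 members, although it was so in 24.7% of all genes. Control 6 was the lowest control in 15 of 21, against 21.8% of all genes. The mean log2 intensity over the 21 genes was 4.98 on Knockout 2 and between 5.38 and 5.73 on the other knockouts, against 4.68 on Control 6 and between 5.08 and 5.24 on the other controls. With any other single array than Knockout 2 left out, 0 members passed limma's test over all genes. Leaving out Control 6 by itself raises the control mean of each gene in which it was the lowest control. Without Control 6 the list median was 0.19 and 16 of 21 members were positive. H2ac10 was then at 0.60 (SE 0.25, adjusted p = 0.407 in limma). Leaving out Knockout 2 by itself raises the knockout mean of each gene in which it was the lowest knockout. Without Knockout 2, 5 members passed limma's test over all genes, where 1.78% of all genes were called higher. These were H2ac21 (log2 fold change 0.87, SE 0.16, adjusted p = 0.0272 in limma), H2ac20 (1.31, SE 0.25, 0.0327), H2bc12 (1.17, SE 0.24, 0.0373), H2bc3 (0.72, SE 0.15, 0.0373) and H2ac10 (1.01, SE 0.21, 0.0389). In that comparison 6 of 21 members had every knockout above every control, the additional one being H4c9 (adjusted p = 0.111 in limma), where 5.67% of all genes did. With both Knockout 2 and Control 6 left out, 4 members passed, namely H2ac10, H2ac20, H2ac21 and H2bc3, where 1.3% of all genes were called higher.

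A list of S phase genes also had its lowest mean log2 intensity on these arrays of each group. The mean was 6.81 on Knockout 2 and 7.24 to 7.59 on the other knockouts. In controls it was 6.47 on Control 6 and 6.87 to 6.93 on the others. In this list, 47 of 47 measured members had positive values, although 0 passed over all genes. At an unadjusted p under 0.05 there were 38, all higher, against 8.29% of all genes in that direction. The median log2 fold change of the 47 was 0.53. The proliferation gene Mki67 read 10.00, 8.91, 9.75, 9.80 and 9.49 in knockouts and 8.07, 9.10, 8.93, 8.82 and 9.02 in controls (log2 fold change 0.80, SE 0.23, adjusted p = 0.174 in limma). Knockout 2 and Control 6 were the lowest arrays of their groups for this gene too. For Pola2, the gene of the list with the lowest p, the lowest arrays were Knockout 5 and Control 7. Its log2 fold change was 0.34 (SE 0.07, adjusted p = 0.117 in limma), and Knockout 2 was its highest knockout. Ribonucleotide reductase subunit Rrm1 was at 0.95 (SE 0.22, adjusted p = 0.129 in limma), and the helicase subunit Mcm7 at 0.70 (SE 0.16, adjusted p = 0.128 in limma). Without Knockout 2, 26 of the 47 passed over all genes, among them Mki67, Rrm1 and Mcm7, and without Knockout 2 and Control 6 the number was also 26, beside 1.78% and 1.3% of all genes called higher.

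**Figure D4:**
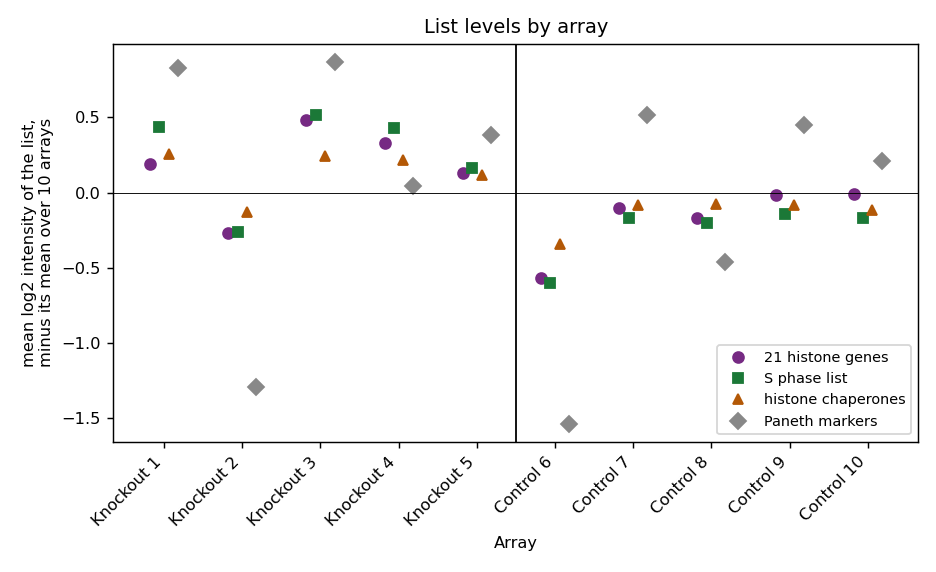
Mean log2 intensity over the members of 4 lists on each array, minus the list's mean over the 10 arrays, with knockouts left of the line and controls right. On Knockout 2, Control 6 and Control 8 all 4 lists lie below 0, with Control 6 the lowest control in each.

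The mean levels of Paneth and of crypt stem cell markers were also lowest on these arrays of each group. The mean over 5 measured Paneth markers was 10.27 on Knockout 2 and 11.61 to 12.43 on the other knockouts, against 10.03 on Control 6 and 11.10 to 12.08 on the other controls. All 5 had positive log2 fold changes and 0 had an unadjusted p under 0.05. For 5 crypt stem cell markers the mean ran from 7.76 to 8.63 in knockouts and from 7.28 to 8.71 in controls. Of these, 2 were higher at an unadjusted p under 0.05, against 8.29% of all genes, and 4 of 5 were positive. The exception was the stem cell receptor gene Lgr5, with a log2 fold change of -0.42 (SE 0.19, adjusted p = 0.362 in limma), whose lowest knockout was Knockout 4. The mean of 8 enterocyte markers ran from 12.90 to 13.11 in knockouts and from 13.00 to 13.15 in controls, and was highest on Knockout 2 and on Control 6. Of the 8, 6 were negative, and the lactase gene Lct had an unadjusted p under 0.05 (log2 fold change -0.45, SE 0.13, adjusted p = 0.182 in limma). The mean of general epithelial markers (4 measured) ran from 12.16 to 12.35 in knockouts and from 12.16 to 12.34 in controls. All 5 goblet cell markers had negative log2 fold changes, 4 of them at an unadjusted p under 0.05 (5.56% of all genes in that direction) and 2 with every knockout below every control (0.965% of all genes). Their mean ran from 11.75 to 12.17 in knockouts and from 12.23 to 12.43 in controls. The part of Paneth, crypt and goblet cell content in the histone values was not tested.

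Dividing lymphocytes and stromal cells also make histones. The mean of 3 markers of germinal centre B cells was 6.30 to 6.47 in knockouts and 6.05 to 6.75 in controls, and that of 5 B and plasma cell markers 6.17 to 6.56 in knockouts and 5.89 to 7.75 in controls. T cell markers (4 measured) ranged from 6.74 to 8.14 in knockouts and from 6.79 to 7.77 in controls. In each of the B and plasma cell and T cell lists 1 marker was positive, at an unadjusted p under 0.05, and the others were negative. These were Jchain (log2 fold change 0.83, SE 0.34, adjusted p = 0.300 in limma) and Cd4 (0.62, SE 0.22, 0.253). The 3 endothelial markers were all higher in knockouts at an unadjusted p under 0.05, as were 2 of 4 macrophage markers and 8.29% of all genes. The mean of the endothelial markers ranged from 6.81 to 7.86 in knockouts and from 6.04 to 7.07 in controls. That of the macrophage markers ranged from 6.92 to 7.87 in knockouts and from 6.53 to 7.17 in controls. Smooth muscle markers (6 measured) ranged from 6.95 to 8.87 in knockouts and from 6.41 to 11.09 in controls. Knockout 2 had the highest knockout value of the T cell, macrophage and endothelial means (8.14, 7.87 and 7.86). No list had a marker passing over all genes, and the part of these cells in the histone values was not tested.

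The machinery that makes and handles histone mRNA was measured as a list of 37 genes, of which 32 had positive log2 fold changes (median 0.14). None passed over all genes. At an unadjusted p under 0.05 there were 10, all higher, against 8.29% of all genes in that direction. Slbp encodes the protein that binds the histone mRNA stem-loop. It read 8.04, 7.94, 8.29, 8.33 and 8.27 in knockouts and 7.82, 8.00, 8.09, 8.13 and 8.05 in controls, for a log2 fold change of 0.16 (SE 0.10, adjusted p = 0.529 in limma). Npat, the coactivator of histone gene transcription, was at 0.30 (SE 0.11, adjusted p = 0.250 in limma). Eri1, an exonuclease that trims the stem-loop end, had knockout values of 7.75, 7.29, 7.49, 7.49 and 7.52 and control values of 6.61, 6.90, 7.13, 7.05 and 7.02. Its groups did not overlap, and its log2 fold change was 0.57 (SE 0.12, adjusted p = 0.111 in limma). Cpsf2, a subunit of the complex that cleaves histone pre-mRNA, had no overlap either and was at 0.52 (SE 0.12, adjusted p = 0.127 in limma). Eri1 and Cpsf2 were the 2 of 37 with every knockout above every control, against 1.64% of all genes. Without Knockout 2, 3 genes of this list passed over all genes, namely Eri1, Cpsf2 and Cdk2, where 1.78% of all genes were called higher.

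Histone chaperones carry new histones to DNA. Of 32 measured, 27 had positive log2 fold changes (median 0.22), with 0 passing over all genes. At an unadjusted p under 0.05 there were 15, all higher, against 8.29% of all genes in that direction. In 2 of the 32 every knockout lay above every control, as in 1.64% of all genes. Asf1b, a chaperone of H3 and H4 in dividing cells, read 7.54, 6.54, 7.63, 7.56 and 7.15 in knockouts and 5.78, 6.47, 6.28, 6.85 and 6.28 in controls, for a log2 fold change of 0.95 (SE 0.23, adjusted p = 0.130 in limma). Knockout 2 was the single knockout within the controls' range. Mms22l, which acts with Tonsl at replication forks, had no overlap between groups and was at 0.53 (SE 0.11, adjusted p = 0.111 in limma). Without Knockout 2, 8 of the 32 passed over all genes, where 1.78% of all genes were called higher.

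A list of histone variants, which replace core histones outside S phase or at special sites, gave a mixed picture. Of 14 measured genes, 7 were positive and 7 negative, and the median was 0.001. Their means over the 10 arrays ran from 2.75 to 9.62 in log2 intensity, so some were dim. At an unadjusted p under 0.05 there were 3, namely H2ax, H4f16 and Cenpa, all higher, against 8.29% of all genes in that direction. H2ax, whose product marks DNA breaks, was at 0.80 (SE 0.26, adjusted p = 0.209 in limma). H4f16, at 0.64 (SE 0.17, adjusted p = 0.165 in limma), was held by the list but is a further gene for H4, not a variant. The centromeric H3 variant gene Cenpa was at 0.53 (SE 0.18, adjusted p = 0.222 in limma). Without Knockout 2, Cenpa and H4f16 passed over all genes, where 1.78% of all genes were called higher. The variant with the lowest log2 fold change was H2az2, at -0.18 (SE 0.10, adjusted p = 0.456 in limma).

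Linker histones bind the DNA between nucleosomes, and their S phase genes lie in the chromosome 13 cluster under symbols that begin with H1f. Of 5 measured, 4 were positive and 2 were higher at an unadjusted p under 0.05, against 8.29% of all genes. H1f5 read 7.86, 6.80, 8.14, 7.80 and 7.90 in knockouts and 6.52, 6.55, 6.22, 7.00 and 7.24 in controls, for a log2 fold change of 0.99 (SE 0.25, adjusted p = 0.146 in limma). All knockouts but Knockout 2 lay above every control. H1f1 was at 0.54 (SE 0.19, adjusted p = 0.239 in limma) and H1f2 at 0.29 (SE 0.17, adjusted p = 0.489 in limma). H1f3 was at 0.09 (SE 0.14, adjusted p = 0.826 in limma), and the testis gene H1f6 at -0.01 (SE 0.12, adjusted p = 0.974 in limma). Without Knockout 2, H1f5 passed over all genes (log2 fold change 1.22, SE 0.19, adjusted p = 0.0188 in limma), where 1.78% of all genes were called higher.

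Core histone genes are near-identical in sequence, and many probe sets therefore carry several symbols. There were 29 such probe sets whose symbols were all of the same kinds as the members, 27 of them with values of their own. Of the 27, 21 had positive log2 fold changes, with a median of 0.36, and 0 passed over all genes. At an unadjusted p under 0.05 there were 12, all higher in knockouts, against 8.29% of all genes in that direction. The 12 probe sets shared by several H3 genes, a class with no member of its own, had a median of 0.20. They ranged from -0.16 to 0.64. In 1 of the 12 every knockout lay above every control, against 1.64% of all genes. For the 9 shared by several H2A genes the median was 0.44, with a highest value of 1.05, and for the 5 shared by H2B genes it was 0.41. The split of signal between such sister genes is uncertain.

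**Figure D5:**
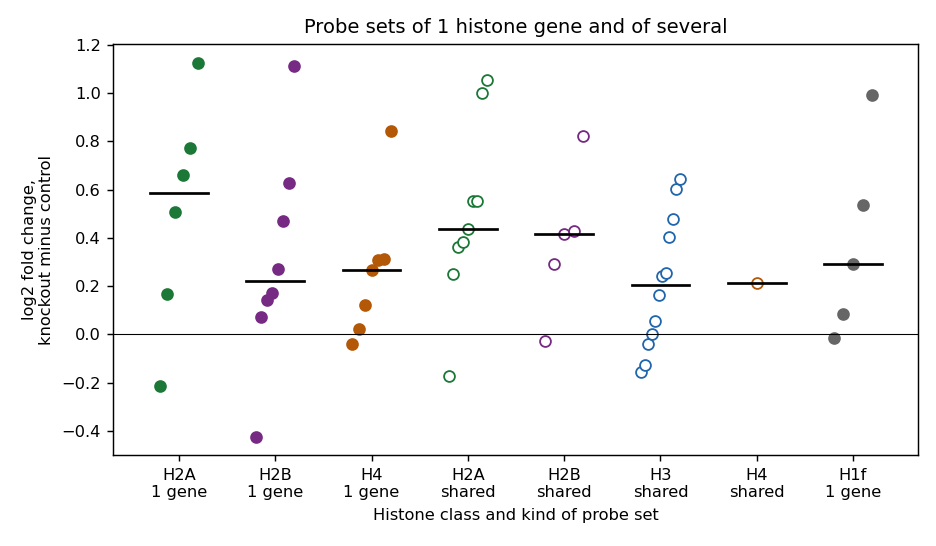
Log2 fold change, knockout minus control, of single-gene probe sets (filled) and of probe sets shared by several genes of a class (open), with the median of each column as a bar. Points are probe sets, not replicates. Of the shared sets 21 of 27 lie above 0, and of the single-gene core histone sets 18 of 21.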

How the data were processed

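RNA from 10 pieces of jejunum was hybridised to Affymetrix arrays with the Affymetrix WT Plus kit and 400 ng of RNA each, per the labels. For the deposited intensity values, the submitters' processing notes name RMA and Affymetrix Expression Console, version 1.4.1.46. The plan had assumed log2 values, but the deposited intensities were linear, from 1.88 to 15500.2, so log2 was taken first. The build and detection values are not given in the sources used here. Precision is limited by having 5 arrays a group.

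Groups came from the sample titles. Of 34472 probe sets, 23521 had 1 gene symbol, 1814 several and 9137 none, by the platform annotation. Keeping the highest mean per gene left 22180 genes. The test of knockout against control was limma (version 3.58.1, R 4.3.3; lmFit, then eBayes, two-sided), with Benjamini-Hochberg adjustment over all genes. Differences are log2, knockout minus control. The fit was tested on simulated data.

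The members and lists were chosen with earlier results of these data known. Members named in detail were, per class, up to 3 with the highest mean and up to 3 with the lowest p, plus H2bc12, H2ac20 and the ends of the fold change. Of the other lists, up to 4 genes by lowest p were eligible, with Slbp, Npat, Mki67, Top2a and Pcyt1a. The remaining members, H2az2, Cdk2, Lgr5, Lct, Jchain, Cd4 and the H1f genes were named after their values were seen. All 21 members matched RefSeq by gene ID. Alternatives were another normalization, dim filters, a variance trend, array weights, the mean of probe sets, shared probe sets and leaving out arrays.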

Additional observations from a re-analysis of the deposited data

Results flagged for a closer look

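Among the 42 groups of 5 values (21 genes in knockouts and in controls), 3 had a single array far from the others, measured as its gap to the nearest array divided by the range of the group. H4c9 on Knockout 2 was at 6.63, with the next knockout at 7.41, a gap of 0.907 of the range. H2ac20 on Knockout 2 was at 6.76 against 7.52, a gap of 0.738 of the range. H2ac20 on Control 6 was at 5.32, with the next control at 6.54, a gap of 0.841 of the range. Chance flags about 1 in 20 groups.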

How the results depend on the processing

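No paired analysis was possible because the groups share no replicate numbers in the labels. Between 0 and 5 members were called when single arrays were dropped, and 4 without Knockout 2 and Control 6, an alternative chosen after seeing the data. It was 0 under every alternative that kept all 10 arrays, where the smallest adjusted p of a member lay between 0.0670 and 0.120. Members without overlap numbered 2 to 6 with 1 array left out, and 6 without both arrays. The list median was 0.64 when only genes averaging 5 or more in log2 were kept and 0.66 at 6, where fewer members were left (10 and 9). The number called with 1 array left out was 0 to 2 for histone variants, 0 to 3 for histone mRNA processing, 0 to 8 for chaperones and 0 to 26 for S phase genes. Without both arrays it was 2, 1, 5 and 26 in the same order, beside 1.3% of all genes called higher. The nonzero numbers with 1 array left out came from leaving out Knockout 2. There 1.78% of all genes were called higher, and the cause was not tested. Of 192 values of the 11 named members under alternatives, 180 kept sign and side of the threshold and 9 passed it, all of them without Knockout 2 or without both arrays. The other 3 were H4c14, at 0.0124 after a further quantile normalization and from -0.144 to 0.081 with 1 array left out, against -0.04.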
